A study of Homo sapiens with 12 samples.

Results

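The expression of 10 nuclear genes whose proteins stabilise, process or degrade the RNA made from mitochondrial DNA was examined in prostate cancer cells treated with pentamidine. The genes were taken by name from the deposited count table, in which each of the 10 was found among 32077 genes. They comprised 6 genes of the FASTK family (FASTK, FASTKD1, FASTKD2, FASTKD3, FASTKD5 and TBRG4, the last also called FASTKD4), the stabilising partners LRPPRC and SLIRP, and the degrading partners PNPT1 and SUPV3L1. RNA-seq had been carried out in PC3 and DU145, established lines of human androgen-independent prostate cancer, both recorded as wild type. Cells were kept in 6-well plates for 48 h with 2.5 μM pentamidine, an aromatic diamidine used against protozoan infections, or with vehicle, which was sterile distilled water. There were 4 groups of 3 samples, 12 in all, and the labels name no further agent. Each line stands for 1 source of cells, and the labels do not say whether samples of a group came from separate cultures, so p-values measure only the spread between these samples.

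Human mitochondrial DNA is copied into long RNAs from both strands, which are then cut into separate mRNAs, tRNAs and rRNAs. Proteins of the FASTK family reside in mitochondria, where single members are needed for the processing, stability or translation of particular mRNAs or of the large ribosomal RNA. LRPPRC and SLIRP form a complex that holds mature mRNAs and favours their polyadenylation, whereas the PNPT1 exonuclease and the SUPV3L1 helicase form the complex that degrades RNA in the organelle.

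Total counts lay between 13514195 and 15131436 reads per sample, and a gene's level is given as normalized CPM, its reads per 1000000 after TMM scaling of the library sizes. Some epithelial markers were lower than the labels would have, and KLK3, which these androgen-independent lines are known to lack, was near 0. EPCAM, an epithelial surface protein, had at most 2 counts in any of the 12 libraries. KRT8, a simple-epithelium keratin, had 238 to 307 counts in the libraries labelled PC3 and 25835 to 38812 in those labelled DU145. KRT18, its partner, had 2125 to 3085 and 9962 to 13423 counts. CDH1, the epithelial cadherin, had at most 1 and 10 counts in the 2 lines and KRT19 at most 1 and 3, both chosen after their values were seen. KLK3, a prostate secretory protease, and PTPRC, a leukocyte marker, did not exceed 2 counts. PECAM1, an endothelial marker, did not exceed 10 and COL1A1, a fibroblast collagen, did not exceed 40. The study's methods state that the lines were authenticated by short tandem repeats. PC3 and DU145 below therefore mean the libraries so labelled.

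Promoter sequences are shown for 3 members to place the genes and their measured changes beside their start sites. FASTKD3 and PNPT1 were lower after pentamidine in both lines, and TBRG4 holds 2 matches to a motif searched for. Each runs 5′ to 3′ from 250 bases before to 50 bases after the RefSeq start on GRCh38.p14, and capitals mark matches to CCGGAAG, the core letters bound by ETS factors such as GABPA.
FASTKD3, chr5:7868982-7869281, minus strand: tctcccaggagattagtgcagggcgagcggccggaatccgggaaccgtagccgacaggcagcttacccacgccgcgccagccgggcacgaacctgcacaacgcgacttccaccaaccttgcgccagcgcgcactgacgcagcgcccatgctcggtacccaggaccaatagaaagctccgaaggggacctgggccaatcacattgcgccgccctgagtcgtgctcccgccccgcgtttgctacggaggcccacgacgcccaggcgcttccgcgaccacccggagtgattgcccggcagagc
PNPT1, chr2:55693795-55694094, minus strand: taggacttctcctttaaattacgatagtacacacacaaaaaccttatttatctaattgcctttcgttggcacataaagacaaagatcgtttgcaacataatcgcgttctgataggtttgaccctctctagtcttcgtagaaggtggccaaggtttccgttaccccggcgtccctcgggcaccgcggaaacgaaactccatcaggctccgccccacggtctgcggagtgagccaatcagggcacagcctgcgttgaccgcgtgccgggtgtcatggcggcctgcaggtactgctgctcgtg
TBRG4, chr7:45111648-45111947, minus strand: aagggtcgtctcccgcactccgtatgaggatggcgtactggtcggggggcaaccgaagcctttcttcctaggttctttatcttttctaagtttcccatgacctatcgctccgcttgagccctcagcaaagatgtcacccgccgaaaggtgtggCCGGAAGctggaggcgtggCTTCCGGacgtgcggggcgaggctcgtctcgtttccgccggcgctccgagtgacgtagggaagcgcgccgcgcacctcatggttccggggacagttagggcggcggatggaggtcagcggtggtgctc
CCGGAAG was searched on both strands and was present in 10.3% of 35116 human promoters of the same length. It was found in 2 of the 9 members with a promoter entry, at 97 and 78 bases before the start of TBRG4 and at 76 bases before the start of SLIRP (44 bases for its second RefSeq start). The NRF1 motif, GCGCA followed by any base and GCGC, present in 5.78% of all promoters, and the ATF4 motif TGATGNAA, present in 3.62%, matched 0 of the 9. As only CCGGAAG matched a member, no matches of different motifs overlapped, and a match describes letters only. FASTKD5 had no promoter entry. The TBRG4 window is placed by the RefSeq start. It lies wholly inside the counted gene, which begins at chr7:45112047 on the minus strand.

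Pentamidine lowered 4 of the 6 FASTK family genes in PC3 cells and 5 of the 6 in DU145 cells. FASTKD1, FASTKD2, FASTKD3 and FASTKD5 fell in both lines, by 0.22 to 0.56 on the log2 scale. FASTK itself rose slightly in DU145 cells and was at a log2 fold change of 0.011 in the PC3 samples. With PNPT1, which also fell in both lines, 5 of the 10 members were called in PC3 cells, all lower, and 9 of 10 in DU145 cells, 7 lower and 2 higher. A gene was called at an adjusted p below 0.05 in the quasi-likelihood test of edgeR, with p-values adjusted by Benjamini-Hochberg over all genes tested. By the same rule 43.4% of all genes tested were called in PC3 cells (21.7% lower). In DU145 cells 34.0% were called (16.8% lower and 17.2% higher). The 5 of 10 in PC3 cells was close to the background of calls in either direction. As all 5 were lower, the like share is the 21.7%, which they exceeded. The 9 of 10 in DU145 cells was above the background. Among these 9, the calls of FASTKD1 and SUPV3L1 were lost with library size alone and with DESeq2. With library size alone the calls over all genes in DU145 cells shifted from 2459 higher and 2401 lower to 3282 higher and 1645 lower. Lower calls in both lines were made for 5 of the 10 members and for 9.62% of the genes tested in both. The median log2 fold change of the members was -0.17 for PC3 and -0.21 for DU145, against 0.0046 and 0.0085 over all genes tested. No member had a log2 fold change above 1 in size, the study's own threshold, which with the adjusted p 4.75% of genes passed for PC3 and 2.03% for DU145. Because these are bulk samples, fewer cells of a kind and less RNA per cell cannot be told apart.

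**Figure D1:**
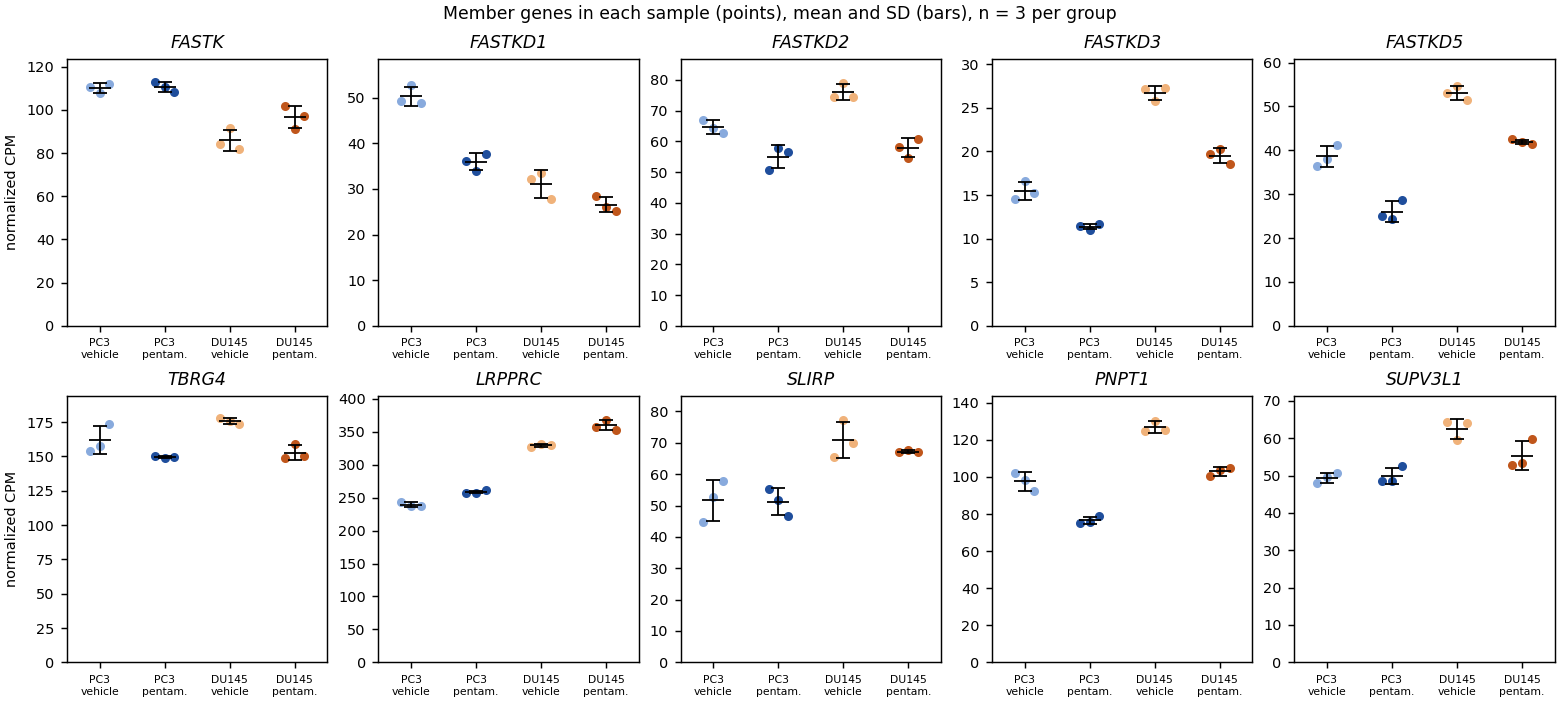
Normalized CPM of the 10 genes on a linear axis from 0, with a point for each sample, and the mean and SD of the 3 samples of a group as bars. FASTKD3, FASTKD5 and PNPT1 lie lower in every pentamidine sample than in every vehicle sample of the same line, whereas SLIRP overlaps between treatments in both lines.

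FASTKD5, whose protein is needed to cut mitochondrial RNAs at ends that no tRNA marks, such as the start of MT-CO1, is encoded at chr20:3146519-3159897 on GRCh38 (ENSG00000215251). Its normalized CPM in PC3 cells was 36.5, 38.1 and 41.2 with vehicle and 25.0, 24.3 and 28.7 with pentamidine (log2 fold change -0.56 ± 0.083 (SE), adjusted p = 3.26e-05). In DU145 cells it was 53.0, 54.7 and 51.5 with vehicle and 42.5, 41.8 and 41.4 with pentamidine (log2 fold change -0.34 ± 0.058 (SE), adjusted p = 5.16e-06). Each treated sample lay below each vehicle sample of its line. FASTKD5 shares 132 exon bases with UBOX5 on the same strand, so that some reads could belong to either gene. UBOX5, with 128 to 269 counts, had log2 fold changes of -0.36 (adjusted p = 0.0327) in PC3 and 0.10 (adjusted p = 0.466) in DU145 cells, and its part in the FASTKD5 result was not tested.

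FASTKD3, a family member linked to the stability and translation of respiratory chain mRNAs, lies at chr5:7859159-7869037 (ENSG00000124279), with the promoter printed above. PC3 cells gave a normalized CPM of 14.5, 16.6 and 15.2 with vehicle and 11.5, 11.02 and 11.7 with pentamidine (log2 fold change -0.43 ± 0.11 (SE), adjusted p = 0.00347). DU145 cells gave 27.1, 25.8 and 27.2 with vehicle and 19.7, 20.3 and 18.6 with pentamidine (log2 fold change -0.45 ± 0.081 (SE), adjusted p = 1.35e-05). The groups did not overlap in either line, and the counts behind them, 155 to 396 reads, were the lowest among the members. FASTKD3 shares 100 exon bases with MTRR on the opposite strand, and whether counting used the strand is not given in the sources used here. MTRR, with 945 to 1751 counts, had log2 fold changes of -0.071 (adjusted p = 0.395) and -0.20 (adjusted p = 8.15e-05) in the 2 lines, nearer to 0 than those of FASTKD3, and its part in the result was not tested.

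FASTKD1, reported to lower MT-ND3 mRNA, lies at chr2:169529749-169573875 (ENSG00000138399). Its normalized CPM in PC3 cells was 49.4, 52.7 and 48.8 with vehicle and 36.1, 34.0 and 37.7 with pentamidine, with no overlap (log2 fold change -0.48 ± 0.070 (SE), adjusted p = 2.93e-05). In DU145 cells it was 32.2, 33.5 and 27.7 with vehicle and 28.3, 26.1 and 25.2 with pentamidine (log2 fold change -0.22 ± 0.077 (SE), adjusted p = 0.0184). There the highest treated sample exceeded the lowest vehicle sample. The DU145 call was lost with library size alone as the scaling (adjusted p = 0.0715), with DESeq2 (0.0876), and without vehicle replicate 1 (0.0575), vehicle replicate 2 (0.134), pentamidine replicate 2 (0.0610) or pentamidine replicate 3 (0.0814).

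FASTKD2, which binds the large mitochondrial ribosomal RNA and takes part in ribosome assembly, lies at chr2:206765357-206792509 (ENSG00000118246). PC3 cells had a normalized CPM of 67.0, 64.3 and 62.7 with vehicle and 50.8, 57.8 and 56.6 with pentamidine (log2 fold change -0.23 ± 0.066 (SE), adjusted p = 0.00980). DU145 cells had 74.5, 79.0 and 74.4 with vehicle and 58.2, 54.7 and 60.9 with pentamidine (log2 fold change -0.39 ± 0.052 (SE), adjusted p = 2.31e-08). The groups did not overlap in either line. FASTKD2 shares 191 exon bases with MDH1B on the opposite strand, which had 24 to 49 counts. The PC3 call was lost without pentamidine replicate 1 (adjusted p = 0.0791).

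TBRG4, which stabilises several mitochondrial mRNAs, and FASTK, needed for MT-ND6 mRNA, are the family members with the most reads. TBRG4 lies at chr7:45100100-45112047 (ENSG00000136270) and FASTK at chr7:151076593-151080866 (ENSG00000164896). TBRG4 shares 132 exon bases with SNORA5B on the same strand, which was not among the genes kept. TBRG4 in DU145 cells had a normalized CPM of 178, 176 and 174 with vehicle and 149, 159 and 149.9 with pentamidine, without overlap (log2 fold change -0.20 ± 0.038 (SE), adjusted p = 2.94e-05). In PC3 cells it was 154, 158 and 173 with vehicle and 150.2, 149 and 149.6 with pentamidine, also without overlap, yet it was not called (log2 fold change -0.11 ± 0.055 (SE), adjusted p = 0.123). It passed the test in PC3 cells without vehicle replicate 1 (adjusted p = 0.0278) and when all 12 samples shared 1 fit (0.0497). FASTK ran the other way. In DU145 cells its normalized CPM was 84.4, 91.5 and 82.0 with vehicle and 102, 91.3 and 97.3 with pentamidine (log2 fold change 0.17 ± 0.047 (SE), adjusted p = 0.00292), and the lowest treated sample lay just under the highest vehicle sample. In PC3 cells it was 111, 108 and 112 with vehicle and 113, 111 and 108 with pentamidine, with a 95% interval of -0.10 to 0.12 on the log2 scale (adjusted p = 0.880).

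**Figure D2:**
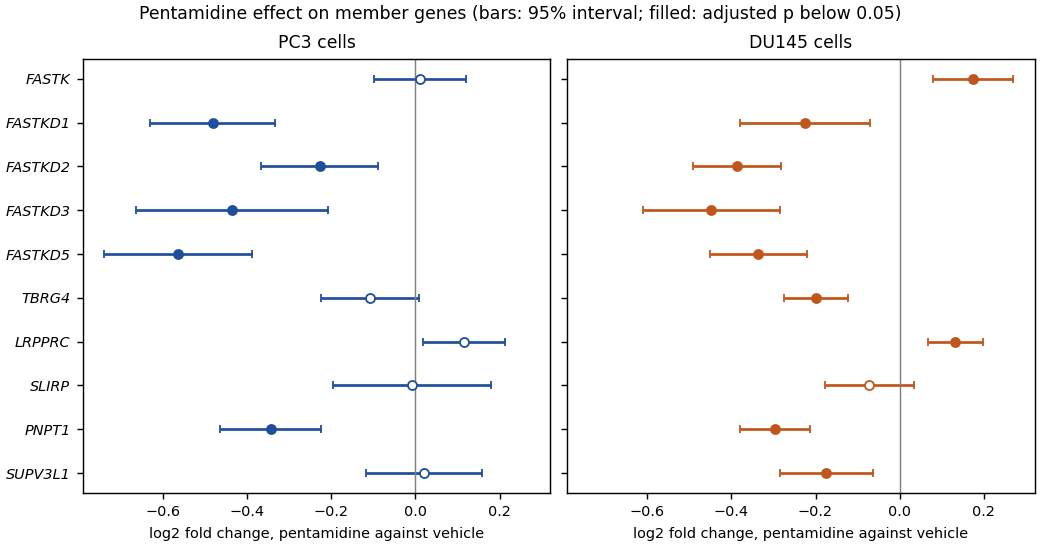
Log2 fold change of pentamidine against vehicle for the 10 genes in PC3 (left) and DU145 cells (right), with 95% intervals; filled points passed an adjusted p of 0.05. FASTKD1, FASTKD2, FASTKD3, FASTKD5 and PNPT1 are filled to the left of 0 in both panels, and LRPPRC and FASTK are filled to the right of 0 in DU145 cells.

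LRPPRC, the RNA-binding partner of the stabilising complex, did not fall with most of the family. The gene lies at chr2:43886508-43996005 (ENSG00000138095). In DU145 cells its normalized CPM was 327, 331 and 331 with vehicle and 358, 368 and 353 with pentamidine, each treated sample above each vehicle sample (log2 fold change 0.13 ± 0.032 (SE), adjusted p = 9.03e-04). In PC3 cells it was 244, 238 and 237 with vehicle and 257, 258 and 261 with pentamidine, again without overlap, but short of the threshold (log2 fold change 0.12 ± 0.046 (SE), adjusted p = 0.0517). It passed in PC3 cells with at least 10 counts required in every sample (adjusted p = 0.0393) and with all 12 samples in 1 fit (0.0193). SLIRP, its small partner, lies at chr14:77708071-77761104 (ENSG00000119705). SLIRP had a normalized CPM of 44.8, 52.6 and 57.8 with vehicle and 55.3, 51.7 and 46.6 with pentamidine in PC3 cells (log2 fold change -0.0088 ± 0.089 (SE), adjusted p = 0.945). In DU145 cells SLIRP was at 65.6, 77.1 and 69.9 with vehicle and 67.0, 67.8 and 67.0 with pentamidine (log2 fold change -0.072 ± 0.052 (SE), adjusted p = 0.305). Groups overlapped in both lines, and the 95% intervals of the change, -0.20 to 0.18 and -0.18 to 0.033, leave room for small changes either way. SLIRP shares 118 exon bases with SNW1 on the opposite strand, whose log2 fold changes were 0.032 and 0.06. It shares 275 exon bases with C14orf178 on the same strand, which had 0 to 5 counts.

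PNPT1, the exonuclease of the degrading complex, fell in both lines, whereas SUPV3L1, its helicase partner, fell in DU145 cells and was not called in PC3 cells. PNPT1 lies at chr2:55634265-55693910 (ENSG00000138035) and SUPV3L1 at chr10:69180232-69209099 (ENSG00000156502). The normalized CPM of PNPT1 in PC3 cells was 102, 98.5 and 92.2 with vehicle and 75.1, 75.8 and 78.9 with pentamidine (log2 fold change -0.34 ± 0.057 (SE), adjusted p = 1.12e-04). In DU145 cells it was 125, 130.4 and 125 with vehicle and 100.3, 104 and 105 with pentamidine (log2 fold change -0.30 ± 0.041 (SE), adjusted p = 6.74e-08). The treated and vehicle samples were separate in both lines. SUPV3L1 was at 47.9, 49.5 and 50.6 with vehicle and 48.6, 48.5 and 52.4 with pentamidine in PC3 cells (log2 fold change 0.021 ± 0.066 (SE), adjusted p = 0.823). In DU145 cells SUPV3L1 was at 64.2, 59.5 and 64.0 with vehicle and 52.8, 53.2 and 59.7 with pentamidine (log2 fold change -0.17 ± 0.055 (SE), adjusted p = 0.0112), and 1 treated sample overlapped the vehicle range. The SUPV3L1 call in DU145 cells was lost with library size alone (adjusted p = 0.0791), with DESeq2 (0.0536), and without vehicle replicate 3 (0.0588), pentamidine replicate 1 (0.0581) or pentamidine replicate 2 (0.0665). Groups did not overlap for 7 of the 10 members in PC3 cells and 6 of 10 in DU145 cells, against 52.1% and 44.0% of all genes tested.

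The difference between the lines' responses was tested as the line by treatment interaction, the DU145 effect minus the PC3 effect. It was called for 0 of the 10 members by edgeR, against 20.4% of all genes tested, and for 0 by DESeq2. At an unadjusted p below 0.05 there were 4, against 31.4% of all genes. FASTKD1 and FASTKD5 were among them, with interactions of 0.26 (adjusted p = 0.0925) and 0.23 (adjusted p = 0.107). The others were FASTK, with an interaction of 0.16 (adjusted p = 0.117), and SUPV3L1, with one of -0.20 (adjusted p = 0.120). The 95% intervals of these 4 differences were 0.037 to 0.48, 0.026 to 0.43, 0.015 to 0.31 and -0.37 to -0.017. With library size alone as the scaling, FASTKD1 (adjusted p = 0.0296), FASTKD5 (0.0294) and FASTK (0.0199) were called. FASTKD5 was called without PC3 pentamidine replicate 3 (adjusted p = 0.0329) and SUPV3L1 without DU145 pentamidine replicate 3 (0.0488).

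Ratios of raw counts within a sample do not depend on the scaling between libraries. PNPT1 gave 2.13, 1.99 and 1.82 counts per SUPV3L1 count in the PC3 vehicle samples and 1.55, 1.56 and 1.51 after pentamidine, without overlap. In DU145 cells the same ratio was 1.94, 2.19 and 1.96 with vehicle and 1.90, 1.95 and 1.76 with pentamidine, with overlap. LRPPRC, of the stabilising pair, gave 2.46 ± 0.0955 counts (SD, n = 3) per PNPT1 count in PC3 vehicle samples and 3.38 ± 0.0606 after treatment, and 2.60 ± 0.0518 and 3.496 ± 0.112 in DU145 cells. This ratio joins the opposite log2 fold changes of LRPPRC and PNPT1 given above. SLIRP was called in neither line and SUPV3L1 not in PC3 cells, so the ratio does not stand for the whole complexes. Within the FASTK family, FASTK took 25.0% ± 0.541 of the counts of the 6 genes in PC3 vehicle samples and 28.5% ± 0.806 after treatment. In DU145 cells its share was 19.1% ± 0.627 and 24.5% ± 1.16. This share also joins changes given above. In PC3 cells FASTK itself was not called, whereas 4 of the 6 family genes fell. Both of these ratios were higher in 3 of 3 treated samples than in any vehicle sample of the line. With 3 samples against 3, the exact two-sided permutation test cannot give a p below 0.1, which both ratios reached in both lines, and the adjusted value over the 14 ratio tests was 0.117. LRPPRC per SLIRP count overlapped between treatments in PC3 cells, at 4.69 ± 0.687 and 5.08 ± 0.483 (exact p = 0.4), and did not in DU145 cells, at 4.67 ± 0.349 and 5.35 ± 0.0806 (exact p = 0.1).

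**Figure D3:**
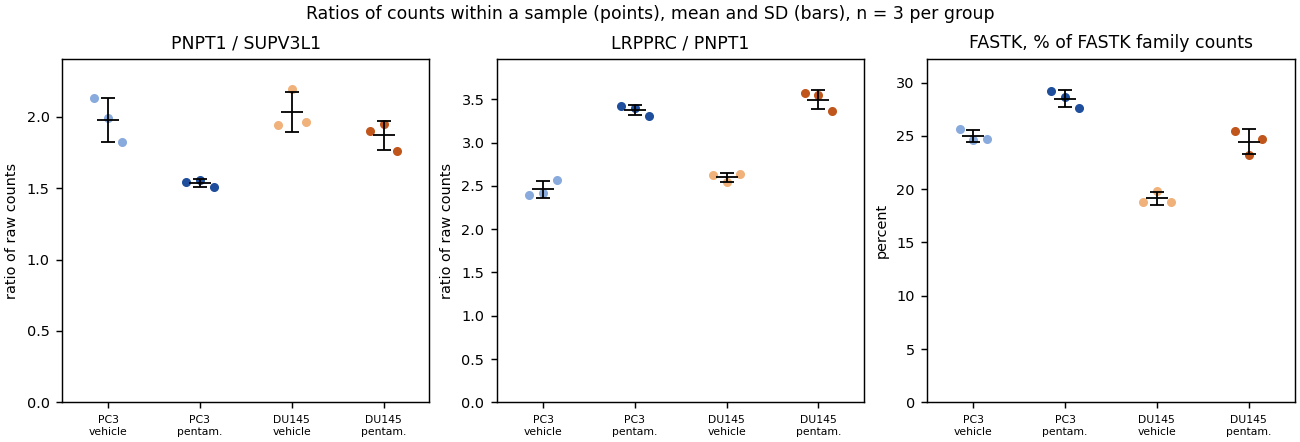
Ratios of raw counts in each sample on linear axes from 0 (points), with the mean and SD of 3 samples per group (bars): PNPT1 per SUPV3L1, LRPPRC per PNPT1, and FASTK as a percent of the 6 family genes. LRPPRC per PNPT1 lies between 2.40 and 2.64 in the vehicle samples and between 3.31 and 3.57 in the treated samples of both lines.

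In vehicle, all 10 members differed between the lines by edgeR's test, 8 lower and 2 higher in PC3 than in DU145 cells, against 65.3% of all genes tested, 33.8% lower and 31.5% higher. All 10 pairs of groups were without overlap, as were 69.1% of all genes. FASTKD3 had the largest difference among the members (log2 fold change -0.82 ± 0.089 (SE), adjusted p = 5.66e-07), followed by FASTKD1 in the opposite direction (log2 fold change 0.67 ± 0.078 (SE), adjusted p = 1.15e-06). FASTK was the other member higher in PC3 cells, with a log2 difference of 0.33 ± 0.055 (SE). LRPPRC and SLIRP, the partners of 1 complex, were both lower in PC3 cells, at -0.48 ± 0.043 and -0.48 ± 0.085, as were PNPT1 and SUPV3L1, at -0.40 ± 0.053 and -0.37 ± 0.062. FASTKD5 was at -0.49 and FASTKD2 at -0.26 on the same scale. TBRG4 was lowest in size at -0.15 (adjusted p = 0.0231). This call was lost with library size alone (0.263), DESeq2 (0.0538), no filter (0.0514), and without PC3 replicate 1 (0.0805) or 2 (0.0904) or DU145 replicate 1 (0.0752), 2 (0.0655) or 3 (0.0510). The median difference of the members was -0.39 against -0.010 over all genes tested. These vehicle samples are also the controls of the treatment comparisons.

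To compare genes with each other, the normalized CPM was divided by the length of the exons of the GENCODE basic transcripts, as CPM per kb. In PC3 vehicle samples TBRG4 at 62.8 ± 3.997 CPM per kb (SD, n = 3) and FASTK at 58.6 ± 1.185 stood highest and overlapped within 1 SD. LRPPRC at 36.0 ± 0.590 and SLIRP at 35.2 ± 4.43 came next and also overlapped. PNPT1 followed at 22.1 ± 1.12, above SUPV3L1 at 19.9 ± 0.551 and FASTKD2 at 19.6 ± 0.658, which did not differ beyond their SD. The order ended with FASTKD1 at 16.96 ± 0.714, FASTKD5 at 13.4 ± 0.826 and FASTKD3 at 6.43 ± 0.437, each apart from the next. In DU145 vehicle samples TBRG4 at 68.3 ± 0.912 stood alone, and LRPPRC at 49.6 ± 0.369, SLIRP at 48.3 ± 3.98 and FASTK at 45.8 ± 2.62 followed, with overlap between LRPPRC and SLIRP and between SLIRP and FASTK. The lowest were FASTKD3 at 11.1 ± 0.324 and FASTKD1 at 10.5 ± 1.03, which overlapped. In treated PC3 cells SUPV3L1 at 20.1 ± 0.892 stood above PNPT1 at 17.4 ± 0.462. With the exons of all transcripts as the length, PNPT1 stayed above SUPV3L1 there, FASTK stood above TBRG4 in both PC3 groups, and LRPPRC stood first in both DU145 groups. Genes at levels far apart changed order as well. FASTK in DU145 vehicle samples, at 22.6 CPM per kb, lay below PNPT1 at 24.7. FASTKD5 in PC3 vehicle samples, at 13.4, lay above SUPV3L1 at 11.5. The order of genes therefore depends on the transcript model.

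**Figure D4:**
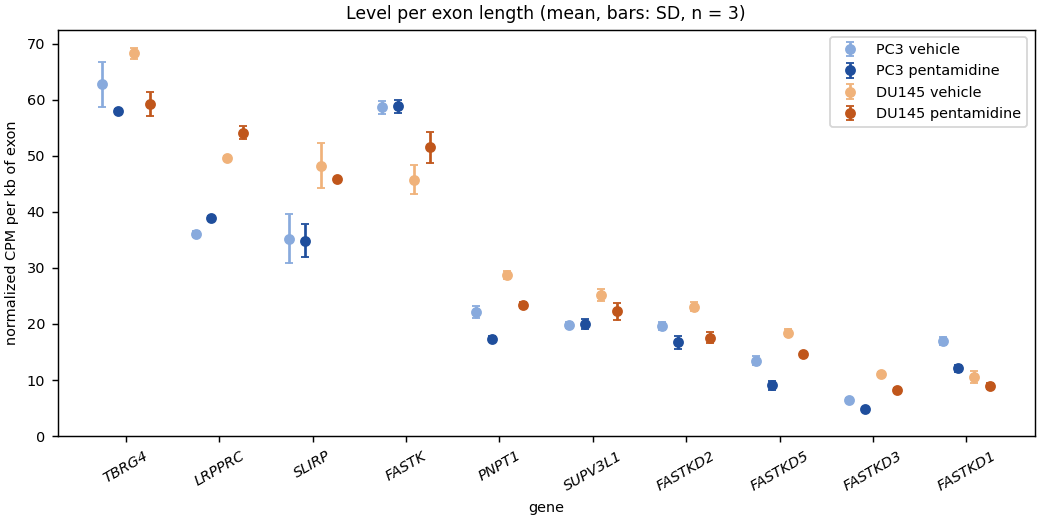
Normalized CPM per kb of exon on a linear axis from 0, with the mean and SD of 3 samples in each of the 4 groups, genes ordered by their level in DU145 vehicle samples. TBRG4, LRPPRC, SLIRP and FASTK stand above the other 6 genes in every group at this length, the basic transcripts; with the exons of all transcripts FASTK lies below PNPT1 in DU145 vehicle samples.

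Other nuclear genes of mitochondrial mRNA maintenance were taken as a list of 17. In PC3 cells 6 of the 17 were called, 2 higher and 4 lower (background 43.4%), and in DU145 cells 4 of 17, all lower (background 34.0%). Their median log2 fold change was -0.027 for PC3 and -0.0023 for DU145, beside 0.0046 and 0.0085 over all genes. The PC3 value was -0.077 without vehicle replicate 1. The DU145 value was 0.048 with library size alone, -0.025 without vehicle replicate 2, -0.023 without pentamidine replicate 1, 0.010 without pentamidine replicate 2 and 0.0086 without pentamidine replicate 3, so its sign is not settled. MTPAP, PDE12 and DHX30 fell in both lines. MTPAP, the mitochondrial poly(A) polymerase, had a normalized CPM of 23.7, 24.6 and 24.0 with vehicle and 19.6, 19.7 and 18.0 with pentamidine in PC3 cells (log2 fold change -0.33 ± 0.085 (SE), adjusted p = 0.00462). In DU145 cells it was 35.6, 36.7 and 35.6 with vehicle and 27.8, 29.03 and 33.2 with pentamidine (log2 fold change -0.26 ± 0.071 (SE), adjusted p = 0.00331). PDE12, which removes poly(A) tails in mitochondria, had log2 fold changes of -0.31 ± 0.067 (SE) and -0.21 ± 0.049, so that an enzyme adding tails and one removing them both fell. DHX30, a helicase of mitochondrial RNA granules, had -0.24 ± 0.050 and -0.19 ± 0.033.

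Among the other listed genes, GRSF1, an RNA-binding protein of the granules, was called in the DU145 samples (log2 fold change -0.14 ± 0.043 (SE), adjusted p = 0.00683), and this call was lost with library size alone (adjusted p = 0.0844), with all 12 samples in 1 fit (0.0707) and without vehicle replicate 2 (0.0574). ANGEL2, a phosphatase of RNA ends, rose in PC3 cells (log2 fold change 0.27 ± 0.087 (SE), adjusted p = 0.0187), a call lost with DESeq2 (0.0543) and without vehicle replicate 3 (0.0698), pentamidine replicate 1 (0.0648) or pentamidine replicate 3 (0.0944). NGRN and RCC1L belong to a module that handles the large mitochondrial ribosomal RNA, with RPUSD3, RPUSD4 and TRUB2. In PC3 cells NGRN rose (log2 fold change 0.39 ± 0.070 (SE), adjusted p = 2.41e-04) and RCC1L fell (log2 fold change -0.23 ± 0.063 (SE), adjusted p = 0.00743), while RPUSD3, RPUSD4 and TRUB2 lay between -0.027 and 0.14 and were not called. The remaining genes, REXO2, LACTB2, PTCD1, PTCD2, PTCD3, TACO1 and DDX28, were called in neither line. PTCD1 had 19 to 45 counts per sample and the widest interval, -0.74 to 0.66 in PC3 cells.

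**Figure D5:**
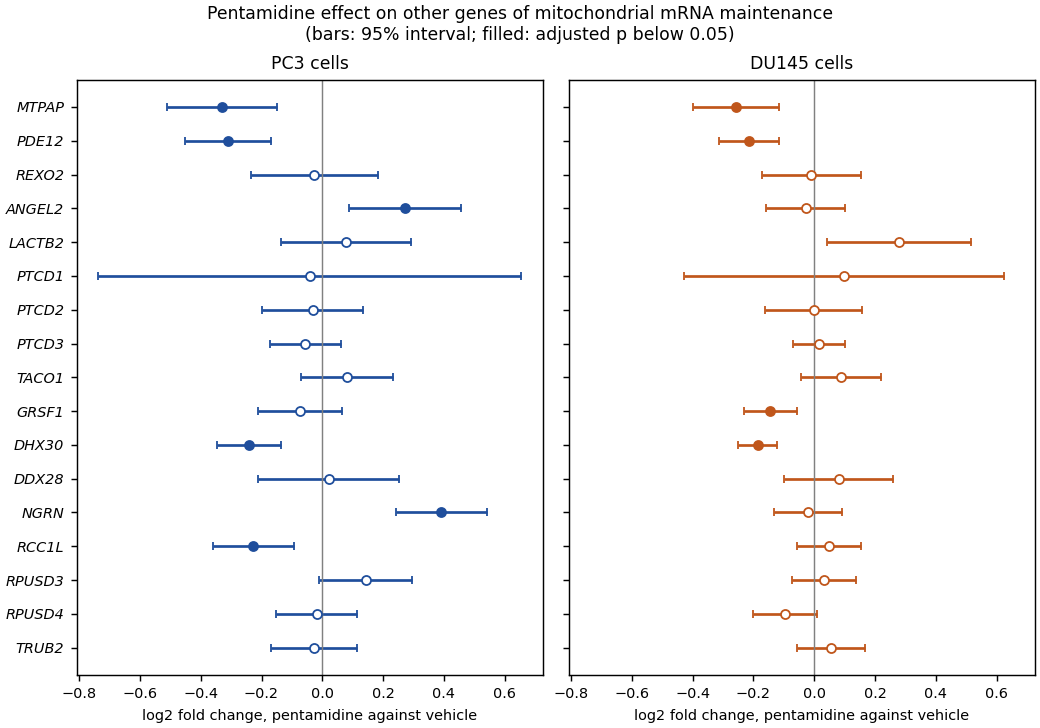
Log2 fold change of pentamidine against vehicle for the 17 listed genes in PC3 (left) and DU145 cells (right), with 95% intervals; filled points passed an adjusted p of 0.05. MTPAP, PDE12 and DHX30 are filled to the left of 0 in both panels. In PC3 cells NGRN and ANGEL2 are filled to the right of 0 and RCC1L to the left. In DU145 cells GRSF1 is filled to the left of 0, and all other points are open.

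The mitochondria-encoded mRNAs fell, whereas the counts of the mitochondrial rRNAs rose, and both had larger log2 fold changes than the genes above. The study's paper also reports less mitochondrial DNA, measured by qPCR, in both lines after the same dose and time. The part of that DNA loss in these counts was not tested here. The 13 mitochondria-encoded mRNAs took 3.42% ± 0.0723 (SD, n = 3) of all counts in PC3 vehicle samples and 0.248% ± 0.00734 after pentamidine, and 3.93% ± 0.110 and 0.209% ± 0.00416 in DU145 cells. MT-ND6, the mRNA that depends on FASTK, had 5137, 5748 and 5550 counts with vehicle and 882, 1051 and 1158 with pentamidine in PC3 cells (log2 fold change -2.41 ± 0.085 (SE), adjusted p = 3.50e-13). In DU145 cells it had 5818, 7181 and 7441 and 695, 779 and 792 counts (log2 fold change -3.20 ± 0.048 (SE), adjusted p = 5.74e-48). MT-ND3, linked to FASTKD1 and TBRG4, had log2 fold changes of -4.45 ± 0.18 (SE) and -5.40 ± 0.060. Its counts in PC3 vehicle replicates 1, 2 and 3 were 3208, 5884 and 4974. MT-CO1, whose processing needs FASTKD5, had -3.99 ± 0.047 and -4.34 ± 0.031. For these 3 mRNAs the fall was larger in DU145 than in PC3 cells, with interactions of -0.79 (adjusted p = 2.92e-06), -0.95 (0.00422) and -0.35 (1.96e-06). MT-RNR2, the large rRNA that FASTKD2 binds, and MT-RNR1, the small rRNA, were added after their values were seen. MT-RNR2 had 52493, 55718 and 47133 counts with vehicle and 284414, 275906 and 283527 with pentamidine in PC3 cells (log2 fold change 2.45 ± 0.043 (SE), adjusted p = 1.82e-17). In DU145 cells MT-RNR2 had 69570, 77731 and 79333 counts with vehicle and 198817, 199420 and 194138 with pentamidine (log2 fold change 1.36 ± 0.027 (SE), adjusted p = 9.12e-42). Every treated sample lay above every vehicle sample, and MT-RNR1 had log2 fold changes of 3.15 ± 0.053 (SE) and 2.32 ± 0.032. The study's paper reports this rise of both rRNAs by RNA-seq but a fall of both by qPCR. It presumes a small number of sequencing errors as the reason, which was not tested here. The rise is therefore given for these counts alone. Set against the mRNAs, LRPPRC went from 0.709 ± 0.0245 (SD, n = 3) to 10.5 ± 0.383 counts per 100 counts of the 13 mRNAs in PC3 cells. In DU145 cells it went from 0.816 ± 0.0170 to 17.4 ± 0.676. PNPT1 went from 0.289 ± 0.0206 to 3.10 ± 0.148 and from 0.314 ± 0.0103 to 4.98 ± 0.207 counts on the same measure (exact permutation p = 0.1 for each, the smallest possible). These rises largely reflect the fall of the mRNAs that the counts are divided by, and PNPT1 itself fell in both lines. The permutation test therefore adds nothing on either nuclear gene. The library was made from RNA selected by Oligo(dT), and the part of the tails of these mRNAs and rRNAs in the counts was not tested.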

How the data were processed

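Read counts per gene were deposited by the authors as whole numbers without normalization. Per the labels, reads were aligned with HISAT2 2.1.0 to GRCh38, and DESeq 1.18.1 was the authors' test. The counting program, the annotation and the strand setting are not given in the sources used here. A second deposited table named FPKM holds counts scaled to 1000000 per library, CPM (100% of values within 1e-05), and tables of the authors' comparisons hold their fold changes, p-values and adjusted p-values; neither was used. Of 33639 lines, 44 held wrapped annotation text, 33595 had an Ensembl identifier and 32077 genes were kept after duplicate entries were merged. Each line was tested with its own 6 samples in edgeR 4.0.16 (R 4.3.3; quasi-likelihood test, TMM, filterByExpr at a minimum count of 10, Benjamini-Hochberg), and the interaction used all 12. Scripts were tested on simulated data. Alternatives were RLE, library size alone, removal of mitochondria-encoded genes, DESeq2 1.42.0, other count filters, the replicate number as a block, 1 fit of all 12 samples and each sample left out. The leave-out values of the ratios were added after seeing the data. Replicates differed beyond sampling noise (mean chi-square per gene 1.72 to 7.30), and each was treated as 1 sample. The highest values, 7.30 and 5.98, came from pairs with PC3 vehicle replicate 1, and the next highest was 3.64. This measure cannot tell separate cultures from separate libraries of 1 culture. The members, the list of 17 genes, the markers and the motifs were chosen with earlier results of these data known. Named genes are the 10 members, the 17 listed genes, MT-ND6, MT-ND3 and MT-CO1 (MT-RNR1 and MT-RNR2 were added after seeing the data), overlapping genes, and, for each member called alike in both lines, the gene nearest in pattern. Promoters are from RefSeq, and member coordinates from the deposited table, identical to GENCODE 29. One marker gene is not reported here.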

Additional observations from a re-analysis of the deposited data

Results flagged for a closer look

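Among the listed genes of mitochondrial mRNA maintenance, the response to pentamidine differed between the lines for 2 of 17, tested as the line by treatment interaction in edgeR (20.4% of all genes passed). For NGRN the DU145 effect minus the PC3 effect was -0.41 ± 0.088 (SE) on the log2 scale, adjusted p = 0.00106. Its normalized CPM was 51.8, 51.4 and 45.0 with vehicle and 64.6, 61.0 and 68.4 with pentamidine in PC3 cells, higher in 3 of 3 treated samples, and 51.6, 50.7 and 50.4 and 49.9, 48.5 and 51.5 in DU145 cells. For RCC1L the difference was 0.28 ± 0.080 (SE), adjusted p = 0.0137. Its normalized CPM was 64.3, 58.1 and 62.6 with vehicle and 53.5, 52.3 and 51.5 with pentamidine in PC3 cells, lower in 3 of 3 treated samples, and 59.4, 61.7 and 62.6 and 60.3, 65.9 and 63.4 in DU145 cells.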

How the results depend on the processing

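The count of members called for the interaction moved from 0 to 3 with library size alone, and lay between 0 and 1 with 1 sample left out. Library size alone also changed the balance of all interactions called, from 1566 higher and 1546 lower to 2265 higher and 1128 lower. With it the sign turned for changes near 0: FASTK in PC3 cells (-0.0069), ANGEL2 (0.022) and NGRN (0.029) in DU145 cells, and the interactions of FASTKD3 (0.056) and SLIRP (0.0041). DESeq2 turned the interaction of LRPPRC (-0.0011). With 1 sample left out, log2 fold changes in PC3 cells ranged from -0.0071 to 0.028 for FASTK, -0.11 to 0.076 for SLIRP, -0.015 to 0.039 for SUPV3L1 and -0.13 to 0.022 for GRSF1, and in DU145 cells from -0.077 to 0.0086 for ANGEL2. The interactions ranged from -0.073 to 0.028 for FASTKD3, -0.0011 to 0.029 for LRPPRC and -0.15 to 0.024 for SLIRP. None of these values passed the test. Samples with the same replicate number did not deviate together (correlations -0.073 to 0.039), so the numbers do not pair them, and the replicate block left the member counts at 5 in PC3 cells, 9 in DU145 cells, 10 in vehicle and 0 for the interaction. Library size alone and DESeq2 each lowered the DU145 count, as the calls of FASTKD1 and SUPV3L1 were lost. FASTKD1 was then no longer called in both lines. With library size alone the median change of the members was -0.16 in DU145 cells, and their median difference in vehicle was -0.31. These medians were -0.26 without DU145 vehicle replicate 3 and -0.36 without PC3 vehicle replicate 1. At these depths FASTKD3 and PTCD1, with the fewest counts, had the least precise changes of the members and of the list.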

Other observations

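For the 5 members lower in both lines, the gene with the most similar pattern over the 12 samples was found among 13115 genes tested in both lines, as the smallest root mean square difference of log2 CPM after each gene was centred on its mean. The 12 samples share lines, treatment and libraries, so likeness is given as a description. PNPT1 was nearest to CANX, a chaperone of the endoplasmic reticulum, at 0.039, where the median over all genes was 0.39. FASTKD5 was nearest to TRMT10C, a subunit of the mitochondrial RNase P that cuts tRNAs out of the same transcripts, at 0.052 against a median of 0.47. FASTKD2 was nearest to KLHL18 at 0.069, FASTKD1 to the kinase STK26 at 0.074 and FASTKD3 to the mitochondrial aldehyde dehydrogenase ALDH1B1 at 0.081. TRMT10C had log2 fold changes of -0.58 for PC3 and -0.29 for DU145, beside -0.56 and -0.34 for FASTKD5. Each nearest gene was picked for its likeness over these samples, so a difference below the median and similar fold changes follow from that choice.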
